A study of Mus musculus with 45 samples.

Results

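The members described here are the high-numbered microRNAs (miRNAs) of alveolar macrophages (AM): every listed mouse miRNA whose number is 1000 or higher, with any letter or arm suffix, except 10. The 10 miRNAs left out were miR-1957a, miR-1961, miR-2137, miR-3470a, miR-3473e, miR-3535, miR-5126, miR-6236, miR-6240 and miR-6538. The choice of those 10 was made with ozone results of these data known, and they moved mostly one way. They were listed in 58 miRNA and table cases, of which 50 had a change above 0 after ozone, so the ozone counts of the members below are counts without them. In all, 124 of the 476 listed miRNAs were members, and 342 were numbered under 1000.

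The samples were 45 C57BL/6 mice aged 12 weeks. SP-A2 mice were humanized transgenic mice with the human surfactant protein A2 variant 1A0, co-ex mice carried the human SP-A1 and SP-A2 variants 6A2 and 1A0, and KO mice had no SP-A. Both humanized lines came from C57BL/6J mice without SP-A, so none of the mice had the mouse protein. Each mouse breathed filtered air (FA) or ozone (O3, 2 ppm) for 3 h, and AM were taken by bronchoalveolar lavage after 18 h of recovery. Females had been synchronized for the estrous cycle. There were 3 FA and 3 O3 SP-A2 males and 4 FA and 3 O3 co-ex males. The 3 female sets and the KO males had 4 mice for each exposure. The promoter that drives the transgenes was not given in the sources used here.

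Small RNA was sequenced in each mouse and each of the 6 sex and genotype sets was normalized in a table of its own, so levels are compared within a table. The reads on the listed miRNAs ran from 137965 to 2884013 for each mouse, with a median of 766213. The 8 macrophage and myeloid miRNAs that were checked, such as miR-223-3p and miR-142a-3p, were listed in every table and none was at 0 in all FA mice of a table. Markers of other cell types were present as well, and they moved with O3: 52 of 53 mesenchymal and 52 of 63 epithelial marker and table cases had a change above 0, against 21 of 48 macrophage and myeloid cases. Over all 6 tables the summed mesenchymal level ran from 646 to 9837 after FA and from 4070.4 to 24030 after O3. Within SP-A2 males it was 3828 to 6111 and 10093 to 18617, and within SP-A2 females 1467 to 3822 and 7874 to 24030. In co-ex females it was 646 to 3815 and 6819 to 14935, and in KO males 688 to 6842 and 9456 to 19033. The FA and O3 ranges overlapped in co-ex males and KO females. The summed epithelial level ran from 839 to 10783 and from 4578 to 26010 over all tables. Its ranges were apart within SP-A2 males and co-ex females and overlapped in the rest. Erythroid markers had a change above 0 in 11 of 16 cases, lymphoid markers in 6 of 12 and endothelial markers in 4 of 4. The summed erythroid level, again over all tables, ran from 2007 to 603614 in FA mice and from 1310 to 516284 in O3 mice. The summed macrophage and myeloid level ran from 12678 to 186877 and from 15915 to 178947, so erythroid miRNAs exceeded it in some mice. The part of these other cell types in the results below was not tested. In bulk RNA, a change in the number of cells of a type and a change in the RNA of each cell cannot be told apart.

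A miRNA is a short RNA cut from a hairpin precursor. The enzymes Drosha and Dicer release a duplex, and one strand, from the 5p or the 3p arm of the hairpin, is loaded into an Argonaute protein. The loaded strand pairs with messenger RNAs mainly through its seed, bases 2 to 8, and lowers their translation or stability. Numbers were given in the order of registration, so most high numbers belong to miRNAs that were found late, by sequencing. Some of them lie in introns, some in host genes for small nucleolar RNAs, and several resemble repeats or other miRNAs.

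Mature sequences were matched by name in RefSeq (GRCm38.p6) for 110 of the 124 members. The sequences below are those of members whose values changed over the 6 tables, with the opposite arm of one of them. The seed, bases 2 to 8, is in capitals, and each sequence reads from 5′ to 3′.
miR-3060-5p: gGGAGUGCuucgugcuucug
miR-3060-3p: cCAUAGCAcagaagcacuccca
miR-3470b: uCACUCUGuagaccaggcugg
miR-8119: gAGGAGAGggagcuaggguc
miR-1298-5p: uUCAUUCGgcuguccagaugua
miR-1249-3p: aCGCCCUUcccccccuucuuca
miR-5107-5p is the other changed member. miR-3060-3p, from the other arm of the miR-3060 hairpin, was not called and is shown because its sign was opposite in KO males. The mature miR-3060-5p lies at chr11:4139377-4139396 on the plus strand, in an intron of Rnf215, a RING finger gene read from the same strand. miR-8119 lies at chr4:129557756-129557775 on the minus strand, in an intron of Lck, which encodes a T cell tyrosine kinase. miR-3470b lies at chr16:44013885-44013905 on the plus strand, opposite to the strand of Gramd1c, in its intron. miR-1249-3p lies at chr15:84951545-84951566 on the minus strand, in an exon of 5031439G07Rik. miR-1298-5p lies at chrX:147064918-147064939 on the plus strand, in an intron of Htr2c, the serotonin receptor 2C gene.

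The Htr2c introns held further members on the same strand of chromosome X, and these are shown because their levels are compared with miR-1298-5p later in the text.
miR-3552: aGGCUGCAggcccacuucccu
miR-1912-3p: cACAGAACaugcagugagaacu
miR-1264-3p: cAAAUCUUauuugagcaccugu
miR-1298-3p: cAUCUGGGcaacugauugaacu
Their seeds all differed. Over all matched members there were 109 distinct seeds, and 6 members shared a seed with another listed miRNA. The GENCODE M21 annotation placed 46 of the 101 matched precursors in an intron on the strand of the host gene, 8 in a coding exon, 10 in an untranslated region and 12 in another exon of the same strand. Another 7 lay on the opposite strand of a gene and 18 in no annotated gene. The members' median GC content was 54.55% (n = 110), against 47.83% for the listed miRNAs numbered under 1000 with a sequence (n = 289), and both sets had a median length of 22 nt.

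Some members resembled a far more abundant miRNA or another member. The last pair is shown because it shares a seed, and the pairs before it because their reads could be confused.
miR-3962: aGGUAGUAguuuguacauuu
let-7g-5p: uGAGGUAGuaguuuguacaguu
miR-3965: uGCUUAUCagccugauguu
miR-21a-5p: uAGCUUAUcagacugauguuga
miR-1843a-5p: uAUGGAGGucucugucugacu
miR-1843b-5p: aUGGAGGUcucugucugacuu
miR-1946b: gCCGGGCAgugguggcacaugcuuuu
miR-8111: aCCGGGCAugguaguguacac
miR-3962 aligned with let-7g-5p over 20 bases with 1 mismatch, and miR-3965 with miR-21a-5p over 19 bases with 2. miR-3962 had between 0 and 21 reads in a mouse, at most 0.552 reads for each 1000 let-7g-5p reads. miR-3965 had between 0 and 20 reads, at most 0.169 for each 1000 miR-21a-5p reads. The values of both are uncertain for this reason. miR-3964, listed only in SP-A2 males with at most 1 read in a mouse, aligned with miR-142a-5p over 20 bases with 3 mismatches. The 5p strands of miR-1843a and miR-1843b matched over 20 bases with no mismatch, shifted by 1 base, and a split of reads between them depends on the counting. miR-1946b and miR-8111 shared the seed CCGGGCA. The first 16 bases of 5 members also occurred, on either strand, in at least 2 other promoter windows of 300 bases among 32851 in the RefSeq table. These were miR-3473b with 44 windows (0.134%), miR-3470b with 17 (0.0517%), miR-1195 with 8 (0.0244%), and miR-1187 and miR-1946b with 3 each (0.00913%), so reads given to them may come from more than 1 locus.

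Detection was sparser for the members than for the lower-numbered miRNAs. Only 30 members (24.2%) were listed in all 6 tables, against 167 (48.8%) of those numbered under 1000. At the other end, 39 members (31.5%) were listed in a single table, against 56 (16.4%). Of these 39 members, 34 were in an SP-A2 table, 26 of them in the males and 8 in the females. The co-ex and KO males had 2 each and the co-ex females 1. Of the 56 lower-numbered miRNAs in a single table, 51 (91.1%) were in SP-A2 males and 2 in the females, so that table held the larger part of the single-table miRNAs of both sets. The SP-A2 males table was also the longest, with 106 members among 448 miRNAs, and the co-ex males table the shortest, with 45 among 234.

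**Figure D1:**
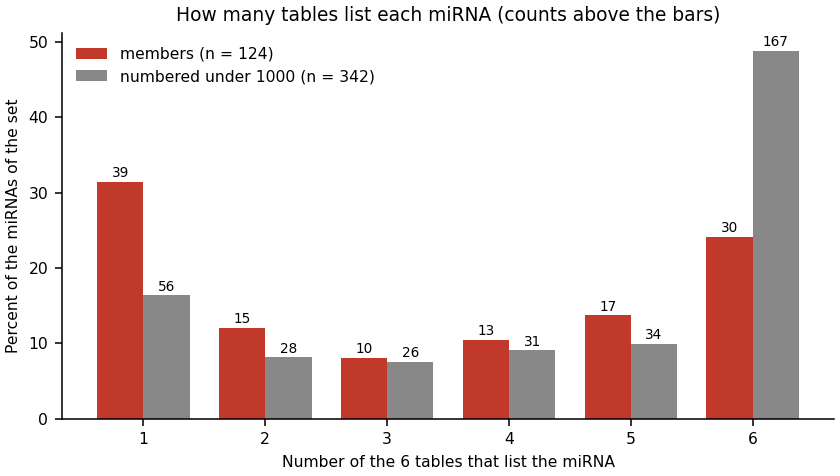
Percent of the members (n = 124) and of the miRNAs numbered under 1000 (n = 342), on the y axis, that were listed in 1 to 6 of the tables, on the x axis, with the number of miRNAs above each bar. The largest bar of the members is that for 1 table (39) and the largest bar of the others that for 6 tables (167).

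Within a table, fewer members than lower-numbered miRNAs were above 0 in every mouse. In SP-A2 males 48 members (45.3%) were, against 70.5% of the miRNAs numbered under 1000. In SP-A2 females 30 members (35.3%) were, against 63.3%. In the KO mice the share was 22.4% in males and 25.0% in females, against 45.0% and 49.1%. In the co-ex mice it was 24.4% in males and 24.5% in females, against 44.4% and 45.8%. The members' median value was also lower in every table, for example 12.9 against 77.7 in SP-A2 males and 78.1 against 298 in co-ex males. All the members together took from 0.732% to 3.59% of a mouse's reads.

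Detection by exposure differed between the tables. In KO males the 4 FA mice had between 53 and 59 members above 0, and the 4 O3 mice had between 23 and 60. The O3 mouse with 23 members, replicate 4, had 180625 reads, the fewest of that table. Thinned to the same 180625 reads, the other O3 mice had from 34.7 to 57.6 members and the FA mice from 43.7 to 52.5. Of the 251 lower-numbered miRNAs, O3 replicate 4 had 142 above 0. The other O3 mice had from 188 to 242 of them and the FA mice from 222 to 232, without thinning. The cause of its low counts was not tested. The deepest KO male, with 2884013 reads, had 53 members. In co-ex females the mouse with the fewest reads, 210710, had 42 where another with 625825 had 30. In KO males 25 members were above 0 in all FA mice but not in all O3 mice, and 20 without O3 replicate 4. The other tables showed the opposite balance: 19 members were above 0 in all O3 but not all FA SP-A2 males, against 8 the other way, and these counts were 10 and 3 for KO females, 13 and 4 for co-ex females, 12 and 0 for co-ex males, and 13 and 8 for SP-A2 females. Thinned to 463196 reads, SP-A2 males had from 69 to 81.2 members above 0 after FA and from 79.8 to 85.8 after O3, so the O3 range started just below the top of the FA range. The lower-numbered miRNAs there, thinned alike, ran from 285.5 to 291.0 after FA and from 299.0 to 310.3 after O3. Thinned within their own table, co-ex females had from 25.2 to 42 members after FA and from 34.9 to 39.6 after O3. KO females had from 32 to 49.5 and from 42.6 to 50.8. SP-A2 females had from 51.2 to 74.0 and from 57.4 to 69, and co-ex males from 16.0 to 27.4 and from 22.1 to 31.8. FA and O3 thus overlapped in each of these sets. In co-ex females the count of members above 0 in every mouse rose from 13 to 21 without FA replicate 4. The counts by exposure were not made over all miRNAs, so they are not shown to be particular to the members. In co-ex males they set 3 O3 mice against 4 FA mice, of which replicate 1 had 137965 reads.

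**Figure D2:**
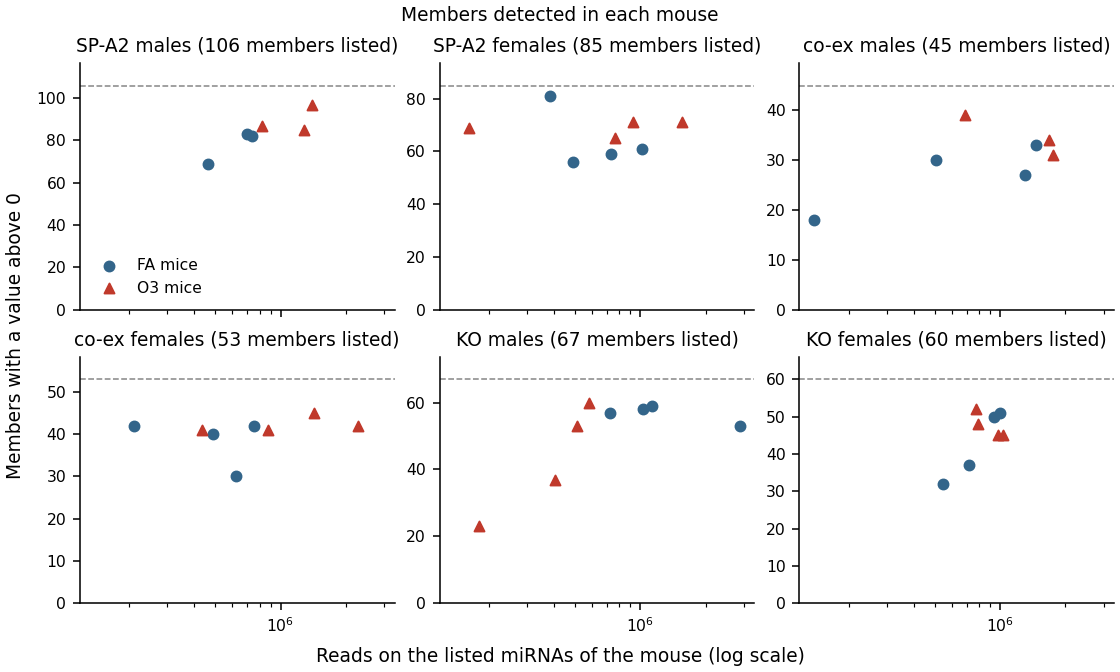
Number of members with a value above 0 in each mouse (y axis) against the reads on its listed miRNAs (x axis, log scale), by table, with circles for FA and triangles for O3 mice and a dashed line at the number of members listed. The KO male O3 mouse with 180625 reads had 23 members, and the 4 KO male FA mice had 53 to 59.

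The members that were above 0 after only 1 exposure were few. In SP-A2 males miR-1199-5p, miR-1291, miR-1948-5p, miR-3964, miR-5110, miR-6238 and miR-8119 were at 0 in the 3 FA mice and above 0 in the 3 O3 mice. Every miRNA listed there was above 0 in at least 3 mice. A miRNA at 0 in all FA mice could therefore be listed only with all 3 O3 mice above 0. The bound was 3 mice in co-ex males and 4 in co-ex females. The pattern, folds and p values below are thus no independent support for a change. How many of all miRNAs had this pattern was not counted. miR-1291, whose precursor overlaps the small nucleolar RNA gene Snora34, had values of 11.4, 19.7 and 18.9 after O3. Taking 3 reads in each FA mouse as the floor, which covers counting error only, its O3 mean was at least 4.04-fold higher. On the same floor miR-6238 was at least 3.27-fold, miR-1199-5p at least 2.91-fold, miR-1948-5p at least 2.21-fold, miR-8119 at least 1.82-fold and miR-5110 at least 1.16-fold higher. miR-3964 had 1 read in each O3 mouse and miR-5130, the member seen only after O3 in co-ex males, at most 2 reads, so no fold is given. In co-ex females miR-8111 was the reverse, with FA values of 21.5, 29.3, 1.22 and 1.24 and 0 in the 4 O3 mice, at least 4.11-fold lower. None of these had an adjusted p below 0.1 in its table (limma). The lowest was 0.118, for miR-1291 and miR-1199-5p, with unadjusted p of 0.00163 and 0.00377. DESeq2 called miR-1291 (adjusted p 0.0496) and miR-6238 (0.0999) in SP-A2 males, and edgeR called none of them.

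The highest levels belonged to a handful of members. The highest mean of the members belonged to miR-1298-5p in the SP-A2 males (5041) and females (3488) and the KO males (3542). It belonged to miR-1249-3p in the co-ex males (5285) and females (4512) and the KO females (3127). Even so, the best placed member ranked only 31st to 46th in its table. miR-3963, from no annotated gene, miR-5099, and miR-8114, from an untranslated region of the glutamine synthetase gene Glul, filled the remaining places among the 3 highest. The 3 highest took from 46.8% to 56.9% of the members' summed mean in a table. At the low end, 45 of the 106 members in SP-A2 males and 8 of the 53 in co-ex females had a mean under 10.

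The effect of O3 was first compared over the 6 tables together, with the table as a term, in the 206 miRNAs listed in all of them. Of the 30 members, 6 changed at an adjusted p below 0.1 (limma with Benjamini-Hochberg adjustment over all 206), which is 20% against 25.7% of all 206. By direction, 3 members (10%) were higher and 3 (10%) lower after O3, against 20.4% of all 206 higher and 5.34% lower. The members' median change was 0.06 on the log2(value + 1) scale, and that of all 206 was 0.18. Over the tables together, miR-3060-5p, miR-3470b and miR-8119 rose, and miR-5107-5p, miR-1298-5p and miR-1249-3p fell. These signs held under median-ratio rescaling and in both count tests, which shifted the median of all 206 to 0.07 (rescaling), -0.10 (edgeR) and -0.13 (DESeq2). The members called higher and lower were 2 and 6 under rescaling, 3 and 4 with edgeR and 3 and 6 with DESeq2.

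**Figure D3:**
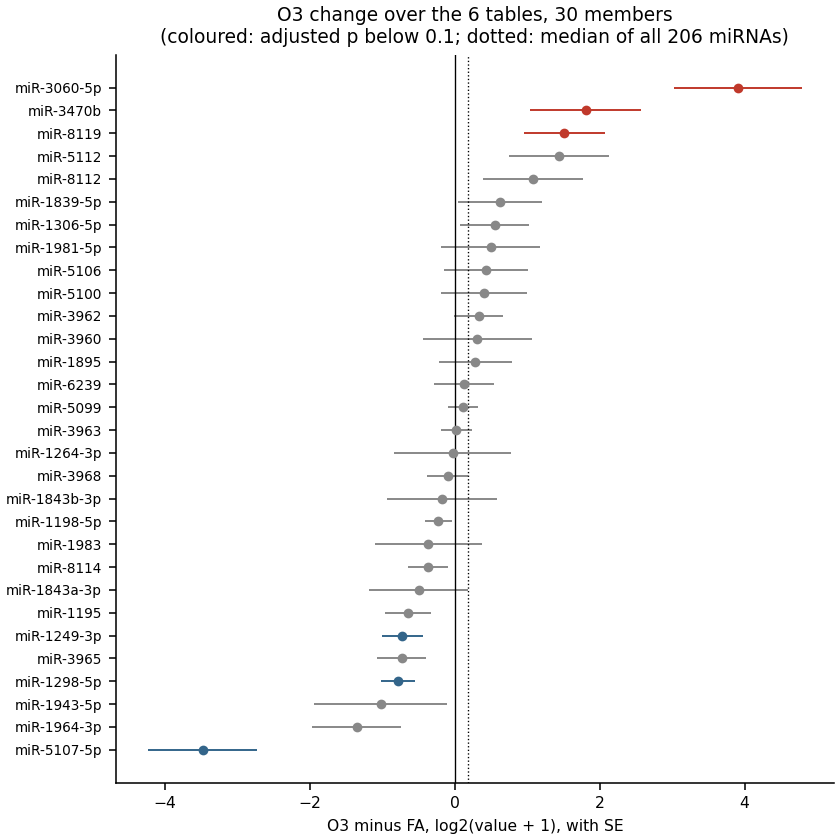
Change after O3 over the 6 tables (x axis, O3 minus FA on the log2(value + 1) scale, point with its SE) of the 30 members listed in all 6 tables (y axis), coloured where the adjusted p was below 0.1. miR-3060-5p sits at 3.91 and miR-5107-5p at -3.48, and the 24 members that did not pass the limma test lie between -1.36 and 1.43, around the dotted line at the median of all 206 miRNAs (0.18).

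miR-3060-5p rose most. In KO males its values were 0, 43.6, 16.3 and 0 after FA and 5189, 1129, 1597 and 49.6 after O3. All 4 O3 mice were above all 4 FA mice, as for 6.1% of all miRNAs in that table. The change was 7.30 (SE 1.81) on the log2(value + 1) scale, with an adjusted p of 0.0504 (limma), and this was the only member that limma called within a single table. The call rested on single mice: leaving out 1 mouse gave adjusted p from 0.00335 to 0.183, and it was lost without FA replicate 4 or any of O3 replicates 1, 2 and 3.

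The other 5 tables had changes above 0 for miR-3060-5p as well. limma and edgeR called none of them, and DESeq2 called the change in SP-A2 females (adjusted p 0.00538) and males (0.0356). The SP-A2 females had 104, 20.0, 83.4 and 52.4 after FA, and 2074, 53.6, 845 and 267 after O3. For SP-A2 males the values were 48.8, 13.2 and 22.3 after FA and 18.3, 121 and 535 after O3. In each of these sets 1 O3 mouse lay within the FA values and the rest above them. Co-ex males had 0, 0, 239.8 and 0 after FA and 0, 658 and 1838 after O3. Co-ex females had 80.04, 84.6, 554 and 0 after FA and 218, 590.0, 1075 and 90.0 after O3. KO females had 16.2, 159.9, 213 and 0 after FA and 2929, 15.6, 273 and 323 after O3. These groups overlapped in all 3 tables. Over the 6 tables the change was 3.91 (SE 0.88), with an adjusted p of 0.000879 (limma). The opposite arm of the hairpin, miR-3060-3p, was listed in 3 tables. In KO males it had 51.5, 53.3, 0.681 and 68.6 after FA and 0, 0, 10.1 and 0 after O3, a difference of -3.72 (SE 1.62) that missed the threshold (limma adjusted p = 0.32). In SP-A2 males and females its differences were 0.48 and 0.06.

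miR-5107-5p fell, and its change was below 0 in all 6 tables. The KO females had 89.3, 117, 332 and 360.2 after FA, and 0, 9.93, 26.8 and 0 after O3. Values for the SP-A2 females were 197, 92.4, 126 and 45.9 after FA, and 0, 11.2, 23.7 and 35.2 after O3. The SP-A2 males had 43.6, 51.7 and 41.1 after FA and 12.2, 2.19 and 32.0 after O3. In these 3 tables every O3 mouse was below every FA mouse, as for 1.05%, 1.61% and 9.6% of all miRNAs in the table. KO males had 17.8, 133, 4.09 and 43.6 after FA and 0, 0, 5.05 and 0 after O3. Co-ex males had 0, 314, 348 and 0 after FA and 50.7, 0 and 0 after O3. Co-ex females had 294, 205, 28.1 and 246 after FA and 0, 501, 176 and 0 after O3. The co-ex groups overlapped widely, and in KO males 1 O3 mouse lay within the FA values. Over the 6 tables the change was -3.48 (SE 0.75), with an adjusted p of 0.000521 (limma), and the largest adjusted p with any table or mouse left out was 0.00886. Within single tables DESeq2 called it in SP-A2 females (adjusted p 0.0488), KO males (0.0423) and KO females (0.0771), and limma and edgeR in none.

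miR-1298-5p fell by a smaller amount from a high level. In SP-A2 males it had 6697, 8886 and 6161 after FA and 3477, 2954 and 2074 after O3. In co-ex females it had 4578, 5173, 4762 and 3542 after FA and 1078, 4217, 682 and 1796 after O3. All the O3 mice of SP-A2 males were below the FA mice, as for 9.6% of all miRNAs there, and 3 of the 4 O3 co-ex females were. In SP-A2 females the mean was 4155 ± 1447 (SD, n = 4) after FA and 2821 ± 2026 (SD, n = 4) after O3. In KO females it was 4006 ± 2395 and 2100.2 ± 968 (SD, n = 4 each). KO males and co-ex males differed by less, with changes of -0.34 and 0.04. Over the 6 tables the change was -0.78 (SE 0.24), with an adjusted p of 0.0136 (limma). Without the co-ex females the change was -0.62 and the adjusted p 0.108, and the call held with each other table left out.

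miR-8119 rose at very low levels. It was at 0 in the 3 FA SP-A2 males and had 4.57, 6.57 and 11.3 after O3. There, a miRNA at 0 in all FA mice was listed only if it was above 0 in all O3 mice. A single O3 mouse stood far above the rest in 3 tables, with 180.3 among KO females, 150.1 among co-ex males and 69.0 among SP-A2 females, where the other O3 mice had 10.4 or less. In KO males the O3 values were 25.8, 2.21, 28.6 and 0, and in co-ex females the change was below 0 (-0.66). Over the 6 tables it was 1.51 (SE 0.56), with an adjusted p of 0.0538 (limma), and the call was lost without SP-A2 males (0.171), SP-A2 females (0.16) or KO males (0.1004), without co-ex male O3 replicate 3 (0.101) and with a pseudocount of 0.1 (0.105). The count tests gave larger changes, 3.00 with edgeR and 3.16 with DESeq2.

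miR-1249-3p fell over the 6 tables by 0.73 (SE 0.29), with an adjusted p of 0.0656 (limma). In co-ex males it had 6606, 6735, 4633 and 10618 after FA and 485, 4426 and 3495 after O3, and all O3 mice were below all FA mice, as for 0.855% of all miRNAs in that table. The SP-A2 females had 3185, 2208, 2704 and 1181 after FA, and 1011, 919, 769 and 2348 after O3. The groups overlapped there and in the remaining 4 tables, with changes from -0.98 in co-ex females to -0.09 in KO males. In KO males and KO females the O3 mean was above the FA mean, although the log2 change was below 0. The call was lost without the co-ex males (adjusted p 0.249), and also without SP-A2 males (0.1001), SP-A2 females (0.16) or co-ex females (0.143), with edgeR (0.169), and without any of 4 single mice, with adjusted p up to 0.127.

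miR-3470b rose over the 6 tables by 1.81 (SE 0.77), with an adjusted p of 0.0904 (limma). In KO males it had 32.3, 86.0, 42.2 and 30.6 after FA and 1233, 48.7, 1202 and 76.3 after O3. In co-ex males the FA mice had 0, 0, 0 and 575 and the O3 mice 0.734, 158 and 223, so the O3 mean of 127 lay below the FA mean of 144 although the log2 change was 3.01. Groups overlapped in all 6 tables. The call was lost with any of the tables left out, with 24 of the 45 mice left out singly, and with rescaling (adjusted p 0.105), edgeR (0.433) and DESeq2 (0.327).

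**Figure D4:**
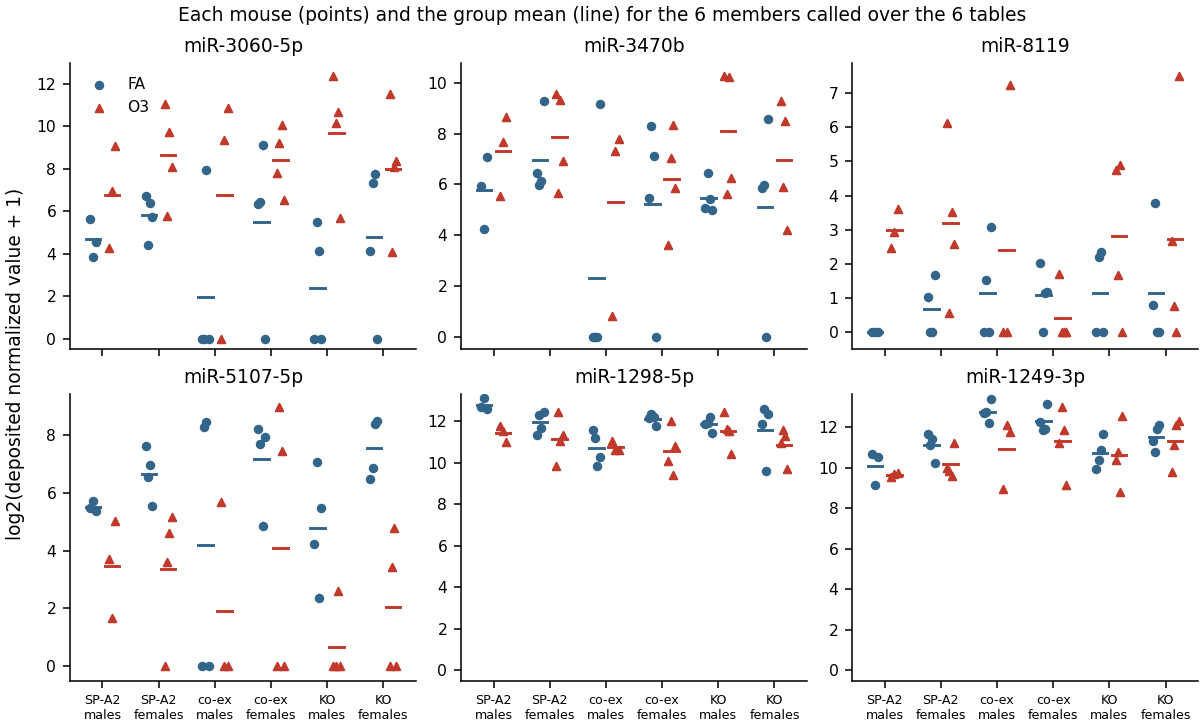
Deposited normalized value of each mouse on the log2(value + 1) scale (y axis) by table (x axis) for the 6 members that changed over the 6 tables, with circles for FA mice, triangles for O3 mice and a line at each group mean. miR-3060-5p and miR-5107-5p were at 0 in some mice, and miR-1298-5p and miR-1249-3p were above 0 in every mouse, the lowest value of miR-1249-3p being 436.

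The change lay on a single side of 0 throughout the tables for 4 members: miR-3060-5p and miR-3470b above 0, and miR-1249-3p and miR-5107-5p below 0. That is 6.67% of the 30 members each way, against 18.9% of all 206 miRNAs above 0 and 3.4% below 0. The other 24 members listed in all 6 tables did not pass the limma test. Their fitted changes ran from -1.36 (miR-1964-3p, adjusted p 0.115, limma) to 1.43 (miR-5112, 0.144). Another pseudocount, scaling or test called 6 of them. miR-5112 had a change of 2.50 with edgeR (adjusted p 0.0366) and 2.57 with DESeq2 (0.00742), and passed with a pseudocount of 10. miR-1195 and miR-1198-5p were called lower by both count tests and miR-8114 by DESeq2, while rescaling called miR-1195, miR-1964-3p and miR-3965 lower. The high-level members miR-3963 and miR-5099 had changes of 0.02 (SE 0.21) and 0.11 (SE 0.21), and miR-8114 had -0.37 (SE 0.28). miR-3968, from the strand opposite to a coding exon of Trim80, had -0.10 (SE 0.29). miR-1839-5p, whose precursor is annotated as a small Cajal body RNA, had 0.62 (SE 0.58), with table changes from -2.38 in KO males to 3.02. The remaining members of this set were miR-1195, miR-1198-5p, miR-1264-3p, miR-1306-5p, miR-1843a-3p, miR-1843b-3p, miR-1895, miR-1943-5p, miR-1981-5p, miR-1983, miR-3960, miR-3962, miR-3965, miR-5100, miR-5106, miR-6239 and miR-8112.

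Within single tables the O3 comparison called few miRNAs of any kind, and the members' counts were read against that. In KO males 1 of 67 members was called, against 5.18% of all miRNAs there (4.88% higher and 0.305% lower). No member was called in the other tables. Of all miRNAs, 0.67% were called in SP-A2 males (0.446% higher and 0.223% lower), 1.07% in SP-A2 females (0.804% higher and 0.268% lower), 1.38% in co-ex females, all higher, and 0% in KO females and in co-ex males. With no adjustment, p was below 0.05 (limma) for 16 of 106 members in SP-A2 males, where it was for 79 of all 448 miRNAs, and for 7 of 85 in the females, beside 46 of 373. KO males had 7 of 67 beside 45 of 328, and the females 4 of 60 beside 22 of 287. Co-ex males had 1 of 45 beside 8 of 234, and the females 4 of 53 beside 30 of 290. edgeR called 1 member, miR-3060-5p in KO males, among 16 miRNAs there, and otherwise only 5 miRNAs in SP-A2 males and 2 in the females. DESeq2 called 10 members of 54 miRNAs in SP-A2 males and 4 of 28 in the females, 7 of 47 in KO males and 1 of 4 in the females, and 0 of 2 in co-ex males and 1 of 15 in the females. The DESeq2 calls in KO males were miR-3060-5p, miR-3470b, miR-5112, miR-5119 and miR-1895 higher and miR-5107-5p and miR-1198-5p lower. In SP-A2 males they were miR-1291, miR-1912-3p, miR-3060-5p, miR-6238 and miR-8111 higher and miR-1198-3p, miR-1247-5p, miR-1298-5p, miR-1912-5p and miR-3552 lower. In SP-A2 females they were miR-1199-5p and miR-3060-5p higher and miR-1195 and miR-5107-5p lower. The members' median change in males was 0.95 (co-ex), 0.14 (SP-A2) and -0.40 (KO), beside 0.64, 0.17 and -0.29 for all miRNAs. In females it was 0.37 (KO), 0.08 (co-ex) and -0.03 (SP-A2), beside 0.45, 0.31 and 0.18. Without the shallow O3 mouse the KO male median was -0.11.

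**Figure D5:**
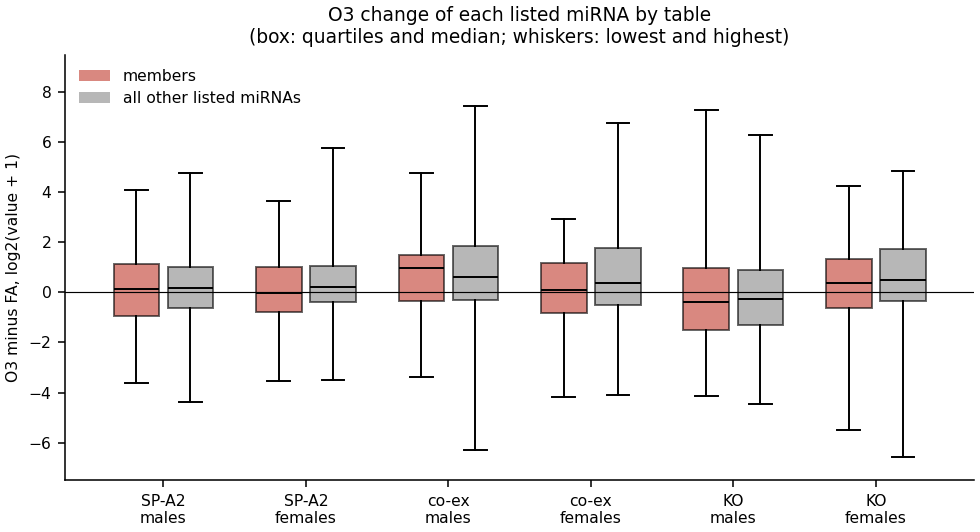
Change after O3 (y axis, O3 minus FA on the log2(value + 1) scale) of the members and of all other listed miRNAs, by table (x axis), with boxes for the quartiles and median and whiskers to the lowest and highest value. The boxes overlap in every table, and the members' highest value is miR-3060-5p in KO males (7.30).

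The members with the smallest p in each table, beyond those described above, were a mixed group and missed the limma threshold, and DESeq2 called miR-1199-5p in SP-A2 females (adjusted p 0.0706) and miR-1895 in KO males (0.0989). In SP-A2 females miR-1199-5p, from a coding exon of 2210011C24Rik, had 0, 0, 0 and 2.18 after FA and 5.75, 15.8, 14.2 and 41.2 after O3 (limma adjusted p = 0.174). In the same table miR-1306-3p, cut from a coding exon of Dgcr8, itself a part of the miRNA processing complex, had 0, 0, 0 and 6.55 after FA and 40.2, 10.7, 21.8 and 16.1 after O3 (0.195). The O3 mice were above the FA mice for both, as for 3.49% of all miRNAs there. In KO males miR-1895 had 43.7, 302, 121 and 52.8 after FA and 813, 808, 246 and 664 after O3 (limma adjusted p = 0.133), with overlapping groups. In KO females miR-1839-5p had 266, 278, 67.6 and 89.7 after FA and 1870.5, 317, 381 and 394 after O3 (0.628). The KO female groups did not overlap, as for 3.14% of all miRNAs there, and 1 O3 mouse carried most of the difference in means.

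Each table held some members whose FA and O3 mice did not overlap. In SP-A2 males, where only 3 mice stood against 3, all O3 mice were above all FA mice for 8 members (7.55%, against 12.7% of all miRNAs) and below for 14 (13.2%, against 9.6%). The 8 included the 7 members at 0 in all FA mice, which could be listed only with all O3 mice above 0. The 14 included 4 members of the Htr2c introns: miR-1298-5p, miR-1298-3p, miR-1912-5p and miR-3552. In SP-A2 females 2 of 85 members (2.35%) were above and 1 (1.18%) below, against 3.49% and 1.61% of all miRNAs. Co-ex males had 3 of 45 (6.67%) above and 1 (2.22%) below, against 6.41% and 0.855%. Co-ex females had 0 of 53 above and 3 (5.66%) below, against 5.86% and 2.07%. KO males had 2 of 67 (2.99%) each way, against 6.1% above and 2.74% below. KO females had 1 of 60 (1.67%) each way, against 3.14% and 1.05%. Among these members, miR-1964-3p and miR-1843b-3p were below in co-ex females. In KO males miR-3103-3p and miR-1298-3p were below and miR-3963 above. Also among them, miR-5130 in co-ex males and miR-8111 in co-ex females were listed only through the exposure in which they were above 0.

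The listed members of the Htr2c introns that carry miR-1264, miR-1298 and miR-1912 were 6: both arms of each. Among KO males 5 of 5 listed had a change below 0, with a median of -1.49, beside -0.29 for all miRNAs. Of these, miR-1264-5p, miR-1298-3p and miR-1912-3p were at 0 in O3 replicates 2 and 4. Those mice had the fewest reads among KO males, 402405 and 180625. Whether depth had a part was not tested. SP-A2 mice had 5 of 6 below 0 in males and 4 of 5 in females, with medians of -1.12 and -0.78, beside 0.17 and 0.18 for all miRNAs. The remaining medians were above 0: 1.04 for co-ex females with 2 of 5 below 0, 1.69 for co-ex males with 0 of 2, and 0.49 for KO females with 2 of 5. All miRNAs had 0.31, 0.64 and 0.45 in these tables. Their levels were very unequal: in SP-A2 males after FA the means were 7248 for miR-1298-5p, 244 for miR-1298-3p, 329 for miR-1264-5p, 254 for miR-1264-3p, 84.8 for miR-1912-5p and 19.1 for miR-1912-3p. The arms of miR-1912 went opposite ways there, with 160.4, 49.3 and 44.6 after FA and 14.5, 12.4 and 0 after O3 for the 5p arm, and 5.23, 16.8 and 35.2 after FA and 114, 176 and 28.3 after O3 for the 3p arm. Neither passed with limma (adjusted p = 0.197 and 0.259), and DESeq2 called both (0.0417 and 0.0803). miR-3552, of the same introns, had a difference of -3.03 in SP-A2 males, -2.82 in KO males and -3.49 in KO females and passed in none with limma (adjusted p = 0.193, 0.347 and 0.727), while DESeq2 called it in SP-A2 males (0.0295).

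Both arms were members for 16 precursors. Where both were listed in the same table, which was so in 43 cases, the 2 arms had the same sign of change in 24. The near-identical pair miR-1843a and miR-1843b had no limma or edgeR call: the 3p strands had changes over the 6 tables of -0.50 (SE 0.68) and -0.18 (SE 0.76). In co-ex females, where its groups did not overlap, miR-1843b-3p had 599, 273, 282 and 679 after FA and 132, 31.2, 73.2 and 169 after O3 (limma adjusted p = 0.412), and DESeq2 called this fall (0.0417). miR-1946a had table means between 13.4 and 139 after FA, and miR-1946b between 8.83 and 29.2, and no table called either with limma, edgeR or DESeq2. Among members with a matched sequence, which leaves out miR-1839-3p, 12 had a precursor that overlaps a small nucleolar or Cajal body RNA. Their medians ran from -1.80 in co-ex females (5 listed) to 1.55 in co-ex males (4 listed), beside 0.31 and 0.64 for all miRNAs. limma and edgeR called none in any table, and DESeq2 called miR-1291 and miR-1843b-3p in the tables named above.

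By number, the 14 members from miR-1195 to miR-1983 that were listed in all tables had a median change of -0.30, with 10 below 0, beside 0.18 for all 206 miRNAs. The 7 from miR-3060 to miR-3968 had a median of 0.31, with 5 above 0. The 5 from miR-5099 to miR-5112 had 0.40, with 4 above 0, and the 3 from miR-8112 to miR-8119 had 1.08, with 2 above 0. The single member between them, miR-6239, had 0.13. A hand-made list of numbers shared with a human miRNA held 5 of these members: miR-1249-3p, miR-1264-3p, miR-1298-5p, miR-1306-5p and miR-3960. Their median was -0.03, with miR-1298-5p and miR-1249-3p the 2 called. The list was not checked for completeness, and other members may share a number too.

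Whether the O3 response of a member differed between the tables was tested with an interaction term. Of the 30 members listed in all tables none was called, and neither was any of the 206 miRNAs (0% called, limma). At an unadjusted p below 0.05 the members numbered 2, miR-3962 (0.00615) and miR-1964-3p (0.0206), of 11 over all miRNAs. The difference between males and females was called for 0 of 72 members in SP-A2 mice (0.282% of all miRNAs were called), 0 of 34 in co-ex mice (0%) and 0 of 50 in KO mice (0%). The unadjusted p was below 0.05 for 3 of the 72, 0 of the 34 and 3 of the 50 members, beside 16 of 354, 3 of 217 and 27 of 270 of all miRNAs. No difference in a member's response between the tables, or between the sexes within a genotype, was detected at this depth and number of mice. Genotypes were not compared apart from sex, and such differences are not shown to be absent. For miR-3060-5p, which limma and edgeR called in KO males and in no other table, the test of a difference between the tables gave an unadjusted p of 0.573 (limma, adjusted p = 0.955).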

How the data were processed

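Small RNA of AM from 45 mice was sequenced from libraries of 1 to 2 ng of RNA with 50 cycles on a HiSeq 2500. The deposited values are normalized signal: the authors divided the reads on each miRNA by a factor of the mouse, in 6 tables normalized separately. Steps in the values gave back the whole reads. Of the values, 100% were whole multiples within 0.001 reads, or within a small fixed fraction of the reads where the count was high. The submitters' processing notes name CASAVA and edgeR, and the study's methods TCC 1.14.0. The aligner, the miRNA reference and the build are not given in the sources used here. The tables also hold the p, q and ranking columns of the authors' own comparison of FA with O3, which were not used.

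Values were taken as log2(value + 1) and O3 was compared with FA by limma 3.58.1 (R 4.3.3) in each table over all its miRNAs, and over the 206 miRNAs in all tables with the table as a term. Interaction terms tested differences between tables and between males and females. Calls are at a Benjamini-Hochberg adjusted p below 0.1, the study's own level. No low values were filtered here. The deposited tables list only miRNAs above 0 in at least 3 mice (SP-A2 and co-ex males) or 4 mice (the other sets). Alternatives were pseudocounts of 0.1 and 10, a minimum value of 10, an adjusted p of 0.05, median-ratio rescaling, a replicate block, edgeR 4.0.16 and DESeq2 1.42.0 on the recovered reads, leaving out each mouse and table, and detection at 3 or 10 reads. The fits were also run on simulated reads with known changes placed in the more abundant miRNAs. The recovery is not given here and does not show how the fits work on sparse members.

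The members, lists and rules were chosen with earlier results of these data known. Named were members called anywhere, the 2 with the smallest p and the 3 with the highest mean in each table, those in all 6 tables, those seen after 1 exposure only, miR-1843a and b, miR-1946a and b, and the miR-1264, 1298 and 1912 cluster. miR-3060-3p, miR-3552, miR-3968, the members whose groups did not overlap and those called only by DESeq2 were named after their values were seen. The labels describe the samples of a group as separate animals. Sequences and positions are from RefSeq and GENCODE M21 (GRCm38), matched by name. Counting floors cover counting error only.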

Additional observations from a re-analysis of the deposited data

Results flagged for a closer look

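Of 72 group values of 4 mice examined for a mouse far from the others, 7 were flagged. The rule flags by chance about 1 in 20 groups of normally distributed values. That rate does not hold where the other mice were all at 0, because any value above 0 is then flagged. On the log2(value + 1) scale, miR-3470b was high in FA replicate 4 of the SP-A2 females (9.27, others 5.98 to 6.45) and in FA replicate 4 of the co-ex males (9.17, others 0). miR-3060-5p was high in FA replicate 3 of the co-ex males (7.91, others 0). miR-5107-5p was low in FA replicate 3 of the co-ex females (4.86, others 7.69 to 8.20) and above 0 in O3 replicate 3 of the KO males (2.60, others 0). miR-8119 was above 0 in O3 replicate 1 of the co-ex females (1.70, others 0). The number of members detected was low in FA replicate 4 of the co-ex females (30, others 40 to 42).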

How the results depend on the processing

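Calls of members within a table depended on the test and on single mice. limma called 1 member in KO males, 0 at an adjusted p of 0.05, and 0 elsewhere. DESeq2 called 10 and 4 members in the SP-A2 males and females, 7 and 1 in the KO, and 0 and 1 in the co-ex. It also called more of all miRNAs, from 2 in co-ex males to 54 in SP-A2 males. Leaving out 1 mouse gave 0 to 2 members in KO males (0 without FA replicate 4 or O3 replicates 1, 2 or 3, and 2 without FA replicate 2 or O3 replicate 4), and 0 to 5 in SP-A2 males (5 without O3 replicate 1 or 3). It gave 0 to 1 in the SP-A2 and the co-ex females, with 1 when O3 replicate 2 was left out. Over all tables together 3 members were called at an adjusted p of 0.05, and 3 when the SP-A2 males, the SP-A2 females or the co-ex females were left out. Leaving out 1 mouse gave 4 to 8. The sign of the 6 called members held under all the alternatives run, with miR-8119 not tested once low values were filtered. Of all 206 miRNAs, 42 were called higher and 11 lower with limma, 39 and 19 after rescaling, 28 and 15 with edgeR and 32 and 28 with DESeq2. The members' median change in co-ex males, 0.95, was 0.194 with a pseudocount of 10 and 0.0425 with low values filtered. Leaving out 1 mouse gave 0.0869 to 1.17, the lowest without O3 replicate 3. A minimum of 10 reads left 26 members detected in every SP-A2 male and 19 in every SP-A2 female. The co-ex female count of 13 ran from 13 to 21 with 1 mouse left out (21 without FA replicate 4). No member was called for a difference between tables or sexes under any alternative. The cause of these differences was not tested.

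Same-numbered FA and O3 mice had correlations between -0.14 and 0.27 and were not paired by design, so the replicate block is only an alternative. With the replicate block 6 members were called over all tables and 1 in KO males, as many as without it. Called miRNAs of any number went from 17 to 24 in KO males and 0 to 2 in KO females, from 3 to 1 in SP-A2 males and 4 to 0 in SP-A2 females, and from 4 to 5 in co-ex females. Of 22 pairs, 5 correlated best with their own number.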

Other observations

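Among the 10 miRNAs left out of the members, 8 of the 58 miRNA and table cases were called higher after O3, and 5 of the 9 listed in all tables were called higher over the tables together (limma). With those 10 included, the median change of all miRNAs numbered 1000 or higher was 0.33 in SP-A2 males, where the members had 0.14, and -0.10 in KO males, where they had -0.40, and both moved by less than 1 SD of the mice.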
